A study of Homo sapiens with 15 samples.

Results

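The 10 genes described here belong to the core machinery of apoptosis and comprise 7 that promote cell death (BBC3, PMAIP1, BCL2L11, BID, BAX, BAK1 and TNFRSF10B) and 3 that protect cells from it (BCL2, MCL1 and BCL2L1). They were listed by name, with earlier results of these data known and no measured value in the rule, and were found on the arrays through the RefSeq accession of each probe. All 10 were measured, by 15 probes that were well above background on all 15 arrays, out of 26826 genes or transcripts tested (16585 with a gene symbol). BBC3, PMAIP1, BAK1, TNFRSF10B, MCL1 and BCL2L1 each rested on a single probe, so no second probe could be set beside it. The question was whether the transcripts of these death regulators moved in melanoma cells within 8 hours of treatment with 3 inhibitors of mitochondrial respiration.

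Proteins of the BCL2 family decide whether the outer membrane of the mitochondrion stays intact. BAX and BAK1 form the pores that release cytochrome c, whereas BCL2, MCL1 and BCL-xL (the long product of BCL2L1) hold them in check. The BH3-only proteins PUMA (BBC3), NOXA (PMAIP1), BIM (BCL2L11) and BID sense damage and bind the protective members or activate BAX and BAK1 directly. DR5 (TNFRSF10B) acts from outside as a cell surface receptor for the ligand TRAIL, and feeds caspase 8, which cleaves BID. BBC3, PMAIP1 and TNFRSF10B are known targets of the stress response factors ATF4 and CHOP (DDIT3).

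A2058 is an established human malignant melanoma line. The cells received no gene edit, were grown in EMEM with 10% FBS, and were exposed for 8 hours to NP (3 μM), metformin (MET, 5 mM), phenformin (PHEN, 50 μM), or to a vehicle alone, either DMSO (for NP) or water (W, for the biguanides). Each group had 3 arrays from 3 independent experiments, each array carrying the RNA of 1 experiment with a single dye. The sample labels call the first compound NP and the record of the series calls it neopetasin, while the study describes petasin at the same dose and time in the same line, so that the name NP is kept here. Levels are log2 intensities relative to the 75th percentile of the array, and a difference of 1 on this scale is 2-fold.

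The arrays lay on 4 slides, each scanned at its own time, with replicates 1 and 2 of DMSO and NP on the first, their replicate 3 on the second, replicates 1 and 2 of W, MET and PHEN on the third and their replicate 3 on the fourth. Every treated array therefore had a vehicle array of the same number on its own slide, but the vehicle and the slides cannot be told apart between the NP set and the biguanide set. Between 25804 and 45044 probes were well above background on an array, and the first replicates of W (45044) and MET (44451) stood apart from the other 13 arrays (25804 to 37924). Of 10 melanoma markers, 9 were above background on all 15 arrays (MITF, PMEL and SOX10 among them) and TYR was on 13. MLANA and TYR were dim, with medians of -1.03 and -2.63, whereas the other melanoma markers had medians of 1.05 or higher. Among markers of other cell types, the epithelial KRT5 and EPCAM were above background on 0 arrays, CD3E was on 11 and DCN on 12, whereas PTPRC, PECAM1, VWF and KRT14 were on 15, with medians between -2.52 and -0.26. At the median MLANA was dimmer than KRT14 (-0.26), and TYR was dimmer than VWF (-2.52).

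BBC3 and PMAIP1, the pair of BH3-only genes on which the results below turn, are shown by the 250 bases before their annotated start in RefSeq (GRCh38.p14), read 5′ to 3′ on the strand of the gene. Capitals mark the letters TGAGTCA (the core bound by AP-1 proteins such as JUN and ATF3) in BBC3, and the letters of TGACGT (the CRE half-site bound by proteins of the ATF and CREB type) on the opposite strand in PMAIP1. The BBC3 window lies at chr19:47232668-47232917 on the minus strand and the PMAIP1 window at chr18:59899746-59899995 on the plus strand.
BBC3: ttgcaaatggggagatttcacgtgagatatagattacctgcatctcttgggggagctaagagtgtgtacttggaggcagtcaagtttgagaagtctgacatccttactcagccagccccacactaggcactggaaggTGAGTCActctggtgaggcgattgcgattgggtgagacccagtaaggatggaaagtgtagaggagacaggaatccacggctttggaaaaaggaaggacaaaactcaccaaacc
PMAIP1: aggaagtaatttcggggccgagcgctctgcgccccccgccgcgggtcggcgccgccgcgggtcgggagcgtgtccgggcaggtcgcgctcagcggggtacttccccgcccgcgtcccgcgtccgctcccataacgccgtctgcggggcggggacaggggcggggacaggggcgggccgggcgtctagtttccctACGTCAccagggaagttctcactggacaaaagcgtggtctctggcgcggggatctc

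The windows differed in base composition, with a GC content of 49.2% for BBC3 and 72.8% for PMAIP1. The 5 motifs were searched on both strands. TGATGNAA (the core that ATF4 shares with C/EBP partners), TGACGTCA (the full CRE, which contains TGACGT) and TGACGCAA matched in neither window, and were present in 3.14%, 1.65% and 0.478% of 35116 windows of the same length. TGACGT was present in 7.1% of those windows and TGAGTCA in 4.2%, and both were added to the search after the windows had been read. A match is a string of letters and not a shown binding site, and other start sites of the genes lie outside these windows. RefSeq windows were also found for BCL2L11, BID, BAX, BAK1, BCL2 and BCL2L1, and none of these held any of the 5 motifs. The table had no window for TNFRSF10B and MCL1.

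No member was called in any comparison, where a call required at least 1.5-fold and an adjusted p of at most 0.05 in limma with Benjamini-Hochberg adjustment over all 26826 genes or transcripts. Few genes of any kind passed this test. With NP against DMSO 0 of 10 members were called beside 0.0373% of all genes (10 genes). With MET against W 0 of 10 were called beside 0% of all genes, and with PHEN against W 0 of 10 beside 0.0261% (7 genes). The methods' paired test also called none of the 10, with or without adjustment, and no member reached 1.5-fold in it. At the unadjusted p of 0.05 of that paired test, BBC3, PMAIP1 and BAK1 passed for NP (7.6% of all genes did). BBC3 and BCL2L11 passed it for MET (11.7%), and BBC3 passed it for PHEN (5.22%). At limma's unadjusted p of 0.05, which 4.69% of all genes passed for NP, 2 members passed (BBC3 and PMAIP1). BBC3 was the member that passed for MET, where 2.46% of all genes did, and for PHEN, where 2.35% did. Without replicate 1 or replicate 2 no member passed in any of these comparisons, and without replicate 3 the same members did. That loss depended on the fit. With a slide term, BBC3 and PMAIP1 passed for NP without replicate 1 (11.7% of all genes did) and without replicate 2 (6.09%). BBC3 passed for MET (8.24% and 2.91%) and for PHEN (6.67% and 4.34%) in the same fits. BCL2 and BCL2L1 also passed for MET without replicate 1. These slide-term fits were added after the data had been seen. With all replicates and the block kept within each slide set, BAK1 and BCL2 also passed for MET (9.29% of all genes did). In that fit PMAIP1 also passed for PHEN (7.1%). BCL2L1 passed for MET without the first arrays of W and MET (2.51%). Groups of treated and vehicle arrays did not overlap for 2 of 10 members with NP (PMAIP1 higher and BID lower, beside 6.41% of all genes), for 1 with MET (BBC3 higher, beside 5.74%) and for 1 with PHEN (BBC3 higher, beside 8.12%).

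**Figure D1:**
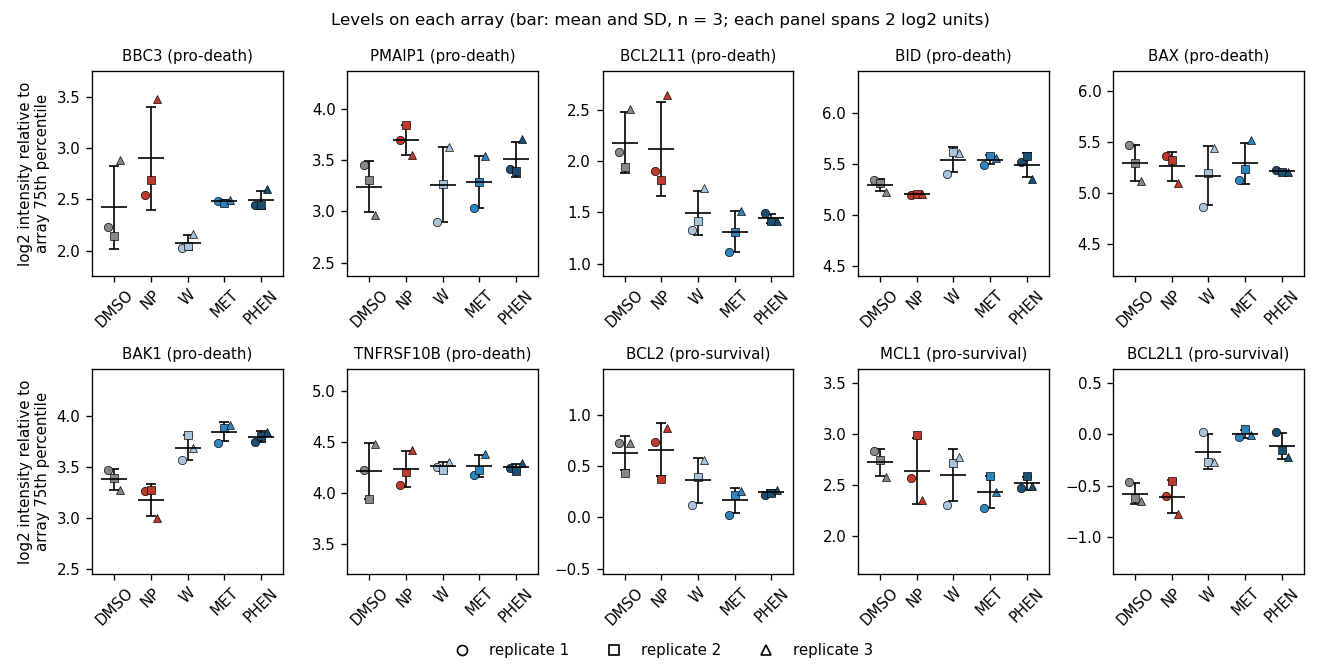
Levels of the 10 genes on each of the 15 arrays, as log2 intensity after subtraction of the array's 75th percentile (vertical axis) by group (horizontal axis). Symbols mark the replicate number, horizontal bars the group mean and vertical lines the SD (n = 3). The 3 W arrays of BBC3 (2.03 to 2.16) lie below all MET and PHEN arrays (2.44 to 2.60), while TNFRSF10B lies level in all 5 groups.

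BBC3, which encodes PUMA, a BH3-only protein that binds all of the protective members, stood higher in the treated array of all 9 pairs. Its level was 2.23, 2.15 and 2.89 in the DMSO arrays (replicates 1 to 3) and 2.54, 2.69 and 3.48 in the NP arrays. The groups overlapped because both arrays of replicate 3, on the second slide, were the highest of their group. The estimate was 1.39-fold (log2 0.48 ± 0.18 SE, 95% interval 0.08 to 0.88), with pair differences of 0.31, 0.54 and 0.59, an unadjusted p of 0.0232 and an adjusted p of 0.973 by limma. In water BBC3 read 2.03, 2.04 and 2.16.
It read 2.48, 2.46 and 2.50 with MET, and 2.44, 2.44 and 2.60 with PHEN, so that neither biguanide group overlapped with the vehicle. The estimate was 1.32-fold for MET (log2 0.41, 95% interval 0.01 to 0.80, unadjusted p of 0.0475 and adjusted p of 1 by limma). For PHEN it was 1.34-fold (log2 0.42, 95% interval 0.02 to 0.82, unadjusted p of 0.0415 and adjusted p of 1 by limma). The pair differences were 0.46, 0.42 and 0.34 for MET and 0.42, 0.40 and 0.44 for PHEN, and both comparisons used the same 3 water arrays.

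The spread that limma assigned to BBC3 depended on the treatment of slides in the fit, and BBC3 read higher on both arrays of the second slide than on all others. When the slide was added to the fit as a further term, the SE of BBC3 was 0.07 and the adjusted p for NP was 0.0418 (0.0418 to 1 over 16 alternatives). The size stayed at 1.39-fold, under the 1.5-fold limit, so BBC3 was not called under this setting either. With the slide term the adjusted p was 0.337 for MET and 0.203 for PHEN. Within slides, the difference for NP was 0.42 on the slide of replicates 1 and 2 and 0.59 on the slide of replicate 3. The same values were 0.44 and 0.34 for MET, and 0.41 and 0.44 for PHEN. Without the first replicates of W and MET, which stood apart, BBC3 did not reach an unadjusted p of 0.05 for MET or PHEN. Over the 5 groups the order of its mean level was NP (2.90 ± 0.51 SD, n = 3), PHEN (2.50 ± 0.09), MET (2.48 ± 0.02), DMSO (2.42 ± 0.41) and W (2.08 ± 0.07). In that order the neighbours NP and PHEN, PHEN and MET, MET and DMSO, and DMSO and W differed by less than the larger SD of each pair.

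PMAIP1 encodes NOXA, a BH3-only protein that binds mainly MCL1. Its level was 3.45, 3.31 and 2.96 in the DMSO arrays and 3.70, 3.84 and 3.55 in the NP arrays, and the groups did not overlap. The estimate was 1.37-fold (log2 0.46 ± 0.20 SE, 95% interval 0.01 to 0.91), with pair differences of 0.25, 0.54 and 0.59, an unadjusted p of 0.047 and an adjusted p of 1 by limma. The biguanide arrays gave smaller values.
PMAIP1 read 2.90, 3.27 and 3.63 in water, 3.03, 3.29 and 3.54 with MET, and 3.42, 3.40 and 3.71 with PHEN. The MET arrays followed the water arrays pair by pair, with an estimate of 0.02 (95% interval -0.43 to 0.47). The estimate for PHEN was 0.25 (95% interval -0.21 to 0.70), of which the first pair gave 0.52 and the others 0.13 and 0.08. The water array of that first pair is among those that stood apart. The difference between the NP effect and the MET effect was 0.44 on the log2 scale (95% interval -0.20 to 1.07, adjusted p of 1 by limma), so that a difference between the compounds was not shown. The block of that fit spans both slide sets. With a slide term, a block within slide sets or slide as a random block, PMAIP1 had an unadjusted p of at most 0.05 by limma. So did 7.41%, 9.75% and 5.45% of all genes, and no gene was called. Over the groups the order of the mean level was NP (3.70 ± 0.15 SD), PHEN (3.51 ± 0.17), MET (3.29 ± 0.25), W (3.26 ± 0.36) and DMSO (3.24 ± 0.25), and the last 3 differed by less than their SD.

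**Figure D2:**
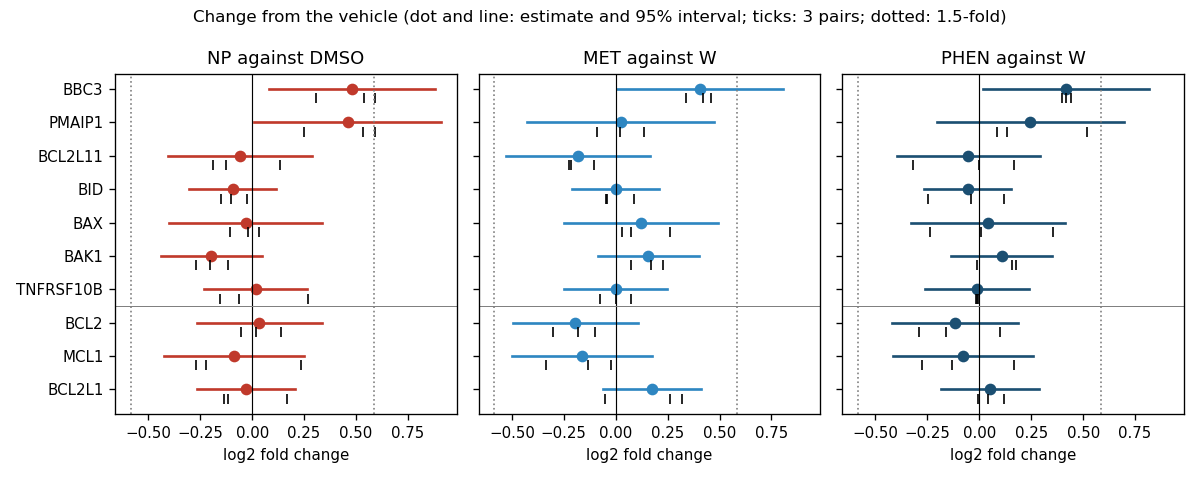
Log2 fold change of each gene (vertical axis) against its own vehicle (horizontal axis) in the 3 comparisons, with the 7 pro-death genes above the line and the 3 pro-survival genes below it. Dots and bars are limma estimates with 95% intervals, black ticks the 3 pair differences, and dotted lines 1.5-fold. Only BBC3 (all 3 comparisons) and PMAIP1 (NP and PHEN) have intervals that reach past 1.5-fold.

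BCL2L11 encodes BIM, a BH3-only protein that activates BAX and binds every protective member. Its main probe read 2.09, 1.94 and 2.51 with DMSO and 1.90, 1.82 and 2.65 with NP, an estimate of -0.06 (95% interval -0.41 to 0.29). In water it read 1.33, 1.42 and 1.74.
It read 1.11, 1.31 and 1.51 with MET (estimate -0.18, lower in all 3 pairs, 95% interval -0.53 to 0.16) and 1.496, 1.42 and 1.42 with PHEN (estimate -0.05, 95% interval -0.40 to 0.29). The other probes of BCL2L11, both assigned to a different RefSeq transcript (NM_207002 in place of NM_138621), disagreed with it in sign for MET, at 0.13 and 0.03. BID, whose cleavage by caspase 8 joins the receptor route to the mitochondrial one, read 5.35, 5.31 and 5.23 with DMSO and 5.20, 5.21 and 5.20 with NP. All 3 NP arrays lay below all 3 DMSO arrays, by only 0.09 on the log2 scale (0.94-fold, 95% interval 0.81 to 1.08), and the second probe of BID gave -0.14. The biguanide arrays of BID overlapped with the water arrays, with estimates of -0.001 for MET and -0.06 for PHEN.

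BAX and BAK1 encode the proteins that form the pores. BAX read 5.47, 5.29 and 5.12 with DMSO and 5.36, 5.32 and 5.10 with NP, and the estimate was -0.03 (95% interval -0.40 to 0.34). Its main probe was printed in 10 spots on each array, which gave a measure of the printing and scanning error. The SD among the spots of 1 array was 0.05 on the log2 scale at the median (0.03 to 0.08 over the 15 arrays).
The water arrays of BAX read 4.87, 5.20 and 5.44. The estimates for BAX were 0.12 for MET (95% interval -0.25 to 0.49) and 0.04 for PHEN (95% interval -0.33 to 0.41). The first pairs, with the water array that stood apart, gave the highest values (0.26 and 0.36). A second, dimmer probe of BAX, assigned to a different transcript, gave 0.04 for NP, 0.11 for MET and -0.002 for PHEN. For NP and PHEN its sign was opposite to that of the main probe. BAK1 read 3.47, 3.39 and 3.27 with DMSO and 3.27, 3.28 and 3.00 with NP. The groups overlapped by a single value, and all 3 pairs were lower with NP (-0.20, -0.12 and -0.27), with an estimate of -0.20 (95% interval -0.44 to 0.05). BAK1 went the other way with MET, from 3.57, 3.81 and 3.69 in water to 3.74, 3.89 and 3.91, higher in all 3 pairs, with an estimate of 0.16 (95% interval -0.09 to 0.40). With PHEN it read 3.74, 3.80 and 3.85 and the estimate was 0.11 (95% interval -0.14 to 0.35). The difference between the NP effect and the MET effect on BAK1 was -0.35 ± 0.15 SE, with an unadjusted p of 0.0451 and an adjusted p of 1 by limma. BAK1 was the 1 member of 10 with an unadjusted p of at most 0.05, beside 2.78% of all genes. In the difference between the NP effect and the PHEN effect there was none, beside 2.43% of all genes. BAK1 reached that level there with a slide term, a block within slide sets or slide as a random block. The shares of all genes were 5.36%, 7.27% and 3.92%. In these fits its unadjusted p by limma for NP against DMSO was 0.0307, 0.0158 and 0.037. The shares of all genes at 0.05 were 9%, 11.5% and 7.52%, and no member was called.

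TNFRSF10B, the receptor DR5, was level throughout. It read 4.23, 3.94 and 4.48 with DMSO and 4.07, 4.20 and 4.42 with NP. In water it read 4.25, 4.22 and 4.31.
It read 4.18, 4.22 and 4.38 with MET and 4.24, 4.22 and 4.29 with PHEN. The estimates were 0.02 for NP (1.01-fold, 95% interval 0.85 to 1.2), less than 0.01 for MET (95% interval 0.84 to 1.19 as a fold) and -0.01 for PHEN (0.99-fold, 95% interval 0.84 to 1.18). All 3 intervals thus lay within 1.5-fold of no change. The second DMSO array gave the lowest of the 15 values (3.94), and without replicate 2 the estimate for NP was -0.11. The group means ranged from 4.22 to 4.26 and no neighbours in their order differed beyond their spread.

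The protective genes gave no call. BCL2 read 0.72, 0.43 and 0.73 with DMSO and 0.74, 0.38 and 0.87 with NP. In the other set it read 0.12, 0.40 and 0.56 in water.
BCL2 read 0.03, 0.22 and 0.26 with MET and 0.22, 0.24 and 0.27 with PHEN. It was lower with MET in all 3 pairs (estimate -0.19, 95% interval -0.50 to 0.11), but its second probe, assigned to the transcript NM_000657 in place of NM_000633, was higher in all 3 pairs (estimate 0.13 ± 0.17 SE). For PHEN the probes of BCL2 again differed in sign, at -0.12 and 0.17. MCL1, a short-lived protective protein that NOXA targets, read 2.84, 2.75 and 2.58 with DMSO and 2.57, 2.99 and 2.36 with NP, and the estimate was -0.09 (95% interval -0.42 to 0.25). MCL1 read 2.30, 2.72 and 2.77 in water, 2.28, 2.59 and 2.44 with MET and 2.47, 2.59 and 2.50 with PHEN. Its estimates were -0.16 for MET, lower in all 3 pairs, and -0.08 for PHEN, with intervals that included 0. BCL2L1 read -0.46, -0.62 and -0.65 with DMSO and -0.60, -0.45 and -0.77 with NP.
In the biguanide set BCL2L1 read 0.03, -0.27 and -0.27 in water, -0.02, 0.05 and -0.01 with MET, and 0.03, -0.15 and -0.22 with PHEN. Its estimates were -0.03 for NP, 0.18 for MET (95% interval -0.06 to 0.41) and 0.05 for PHEN. The probe of BCL2L1 is listed under a single transcript (NM_138578). Its sequence was not used, so whether it reads the protective long form, the short form of opposite function or both is not known.

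**Figure D3:**
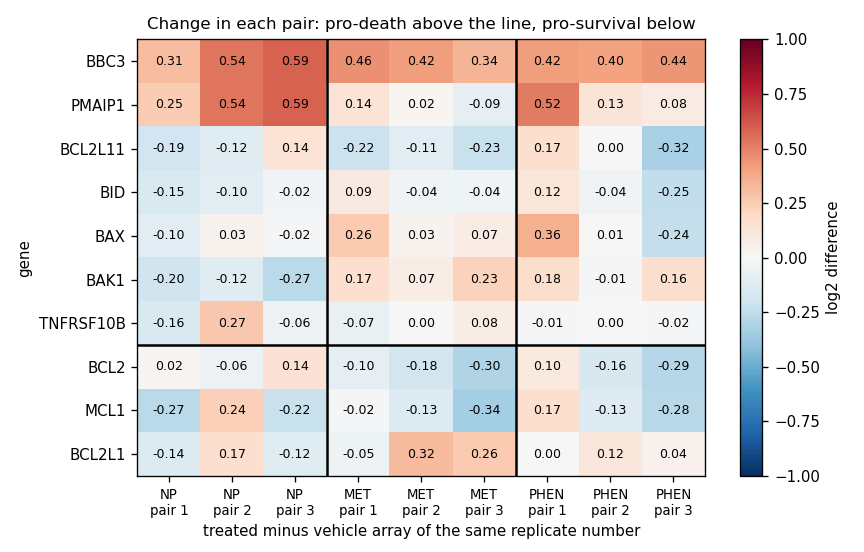
Log2 difference between the treated array and the vehicle array of the same replicate number (colour and printed value) for each gene (rows) in the 9 pairs (columns). The row of BBC3 is positive in all 9 pairs, from 0.31 to 0.59, and that of PMAIP1 in 8 of 9, whereas the other rows hold both signs.

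Set against each other as classes, the pro-death genes had a slightly higher mean change than the pro-survival genes in every pair. The mean log2 change of the 7 pro-death genes minus that of the 3 pro-survival genes was 0.11 ± 0.09 for NP (SD, n = 3 pairs), 0.14 ± 0.07 for MET and 0.15 ± 0.02 for PHEN. The values in the single pairs ranged from 0.03 to 0.20. No test was made of these values, since earlier results of these data were known when the members were listed.
For NP the positive difference rested on BBC3 and PMAIP1, while for MET and PHEN it was smaller without them but stayed above 0. Without these 2 the difference was -0.05 for NP, 0.08 for MET and 0.05 for PHEN. The medians of the pro-death genes were -0.03, 0.02 and 0.04 for NP, MET and PHEN, and those of the pro-survival genes were -0.03, -0.16 and -0.08, beside medians over all genes of -0.01, 0.004 and -0.03. The small changes were bounded well. The 95% interval lay within 1.5-fold of no change for 8 of 10 members with NP (53.4% of all genes), 9 with MET (53% of all genes) and 8 with PHEN (55.2% of all genes). The median SE was 0.14 for the members and 0.19 for all genes. The members were above background on all 15 arrays, whereas a filter requiring this kept 19580 of the 26826 features. These shares and SEs are thus not matched for brightness.

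The effects of the compounds were also set against each other, each relative to its own vehicle and at doses that differ between compounds. In the difference between the NP effect and the MET effect 0 of 10 members were called (0% of all genes), and likewise in the difference between the NP effect and the PHEN effect (0% of all genes). For BBC3 these differences were 0.08 (95% interval -0.49 to 0.64) and 0.06 (95% interval -0.50 to 0.63). For TNFRSF10B they were 0.02 (95% interval -0.34 to 0.37) and 0.03 (95% interval -0.33 to 0.38). The intervals of BBC3 include differences of up to 1.56-fold, so that like effects of the compounds on BBC3 were not shown.

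The level course of TNFRSF10B stood beside higher values of stress response genes. Among these, ATF4 and DDIT3 are known to act upstream of TNFRSF10B. TRIB3, a pseudokinase induced by ATF4 and CHOP, rose 2.01-fold with NP (log2 1.01 ± 0.13 SE, adjusted p = 0.0459 by limma). That call was made in 8 of 16 alternatives (adjusted p 0.00389 to 1). Leaving out replicate 1, 2 or 3 of every group each lost the call (limma's adjusted p of 0.419, 1 and 0.288), as did leaving out the first arrays of W and MET (0.107).
DDIT3, which encodes CHOP, read 0.12, -0.16 and 0.15 with DMSO and 0.75, 0.93 and 1.56 with NP, without overlap. Its estimate was 2.06-fold (log2 1.04 ± 0.22 SE, adjusted p = 0.247 by limma), and the estimates were 0.69 for MET and 0.63 for PHEN, also without overlap (adjusted p = 1 for both by limma). DDIT3 was called for NP in 3 of 16 alternatives, namely those with the slide as a term (adjusted p = 0.0343), with the block within slide sets (0.0452) and with slide as a random block (0.0163), and its adjusted p ranged from 0.0163 to 1. ATF3, a transcription factor induced by ATF4, gave 1.17 with NP (adjusted p = 0.164 by limma), 0.85 with MET (adjusted p = 1) and 0.99 with PHEN (adjusted p = 0.777). The same 3 alternatives called ATF3 for NP (limma's adjusted p of 0.0343, 0.0345 and 0.0151, with a range of 0.0151 to 1 over all 16). Of its 3 dimmer probes, one gave 1.18, 0.69 and 0.69 for NP, MET and PHEN, the next 0.48, 0.51 and 0.43, and the last, with an SE of 0.35, gave -0.10, 0.21 and -0.22. ATF4 itself, which is controlled mainly through its translation, gave 0.60 with NP, 0.52 with MET and 0.57 with PHEN, higher in all 9 pairs and with no call.

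The rest of the pathway was read from lists of related genes, with 1 call among them. Of 11 other BCL2 family genes 9 could be tested and none was called. HRK, a BH3-only gene, had the largest estimate for NP, 0.53 ± 0.15 SE (1.44-fold, unadjusted p of 0.00627 and adjusted p of 0.71 by limma), with pair differences of 0.49, 0.47 and 0.64. The values of HRK were 0.10 for MET and 0.29 for PHEN. BIK, also BH3-only, gave -0.29 for NP, lower in all 3 pairs. For MET the largest estimates in that list were BAD (0.23) and BOK (0.13), and for PHEN BMF (-0.30, of which the first pair gave -1.03) and HRK.
Of 13 genes of the death receptor pathway 11 were tested, with 0 calls. TNFSF10, the ligand of DR5, gave -0.62 for NP, with pairs of -0.60, -0.19 and -1.08, and was above background on 12 of 15 arrays. TNFRSF10A, which encodes the sister receptor DR4, gave 0.26 for NP and -0.42 for PHEN, where its pairs ran from -1.23 to 0.63. CASP8, the caspase that the receptors activate, gave 0.19 for PHEN. For MET the largest estimates were FAS (-0.14) and CASP10 (0.13).

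Of 13 caspases, apoptosome genes and their inhibitors 13 were tested with 0 calls, and most estimates were below 0 (11 of 13 for NP, 9 of 13 for MET and 10 of 13 for PHEN, beside 53.8%, 49% and 59.5% of all genes). The medians were -0.06, -0.16 and -0.08. For MET the largest estimates were BIRC3 (-0.36), an inhibitor of apoptosis, and APAF1 (-0.27), the scaffold of the apoptosome. For PHEN they were DIABLO (-0.58, of which the first pair gave -1.64) and BIRC3 (-0.30).
The list of 10 upstream transcription factors and their partners held the call of TRIB3 for NP and no call for MET or PHEN. With slide as a random block TRIB3 was also called for PHEN (adjusted p = 0.049 by limma, 0.049 to 1 over 16 alternatives). JUN, named here after its values had been seen, was lower in all 9 pairs, with estimates of -0.43 for NP, -0.46 for MET and -0.56 for PHEN (adjusted p = 1 for each by limma), and its MET and PHEN arrays did not overlap with the water arrays.

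The vehicle groups did not overlap for 4 of 10 members, beside 29.5% of all genes. BCL2L11 was higher in the DMSO arrays than in the water arrays by 0.69 on the log2 scale, without overlap. BAK1, BID and BCL2L1 were lower in DMSO without overlap, by -0.31, -0.25 and -0.41. BBC3 was higher in DMSO by 0.35, with overlap, while PMAIP1 and TNFRSF10B differed by -0.02 and -0.04. Vehicle and slides cannot be told apart here, so these values are given with no test, and the changes of each compound were taken against its own vehicle on the same slide.

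The genes whose 9 pair differences lay closest to those of a member were found among 13868 genes with a symbol that were above background on all 15 arrays, by the root mean square distance. The 6 differences of MET and PHEN share the 3 water arrays. For BBC3 they were DDIT4, an inhibitor of mTORC1 (distance 0.11, estimates of 0.48, 0.37 and 0.56 for NP, MET and PHEN), SARS1, which encodes seryl-tRNA synthetase (0.11, estimates of 0.56, 0.39 and 0.46), and NHSL1-AS1 (0.13). For PMAIP1 they were AMIGO2 (0.07, estimates of 0.38, -0.01 and 0.22), LARP6 (0.10) and ZNF502 (0.11). For TNFRSF10B they were TMEM134, STK24 and CPD, with distances of 0.05 each. A gene that hardly moves has many near neighbours, since the root mean square of its own 9 differences was 0.11, compared with 0.44 for BBC3 and 0.34 for PMAIP1.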

How the data were processed

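RNA of A2058 cells was measured on 15 single-dye Agilent arrays, 3 per group. The authors extracted spot intensities with Agilent Feature Extraction (10.7.3.1 per the file headers, 9.1 in the submitters' processing notes), which subtracts background within an array and does not normalize between arrays. A second deposited file holds log2 values that the authors shifted to a common 75th percentile and floored at 4, and served as an alternative. Its column medians ran from 4 to 5.15, and 31.39% to 50.84% of the values of an array lay at the floor. Values well above the floor followed the log2 intensities of the same array (rounded Pearson r of 1). The shift between them was nearly constant within an array (SD of at most 0.004).

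Log2 intensities were taken, controls and outliers (1853 of 913515 values) were left out, replicate spots were averaged, and each array was centred on its 75th percentile. The filter kept 32914 of 58201 probes, those well above background throughout at least 1 group. The brightest probe stood for each gene, with a symbol assigned through RefSeq accessions, and 31104 probes had a symbol. The members' probes passed on every array, so the filter removed none.

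All 15 arrays were fitted with 5 groups and the replicate number as a block, as the study's test was paired, using limma 3.58.1 in R 4.3.3 (empirical Bayes, two-sided, Benjamini-Hochberg adjustment over 26826 features). Arrays of the same number deviated together (r of 0.31, 0.33 and 0.65 for NP and DMSO, and 0.86, 0.44 and 0.80 for MET and W). For PHEN and W r was 0.30, 0.24 and 0.40. Arrays of the same number within a slide set also shared a slide, and arrays of different numbers were not compared. These values thus cannot tell a pairing by number from an effect of the slide. The block of the reported fit spans both sets. Across the sets, NP and W arrays of the same number gave r of 0.23, -0.12 and 0.11, and the block within each slide set was run as an alternative. The 95% intervals are for single genes and were not adjusted for the number of genes.

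The members and lists were chosen with earlier results of these data known. Genes named beside the members were, from each list, those called or else the 2 with the largest absolute estimate. Stress response genes that include ATF4, DDIT3, ATF3 and TRIB3 were named as well. Some genes that met the rule, and 1 list, are not reported here. HRK and BIK met this rule for NP.

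Alternatives were a fit without the block, a slide term, slide as a random block (statmod 1.5.0), the block within each slide set, quantile normalization, normexp (offset of 50), no filter, the authors' table, a filter requiring all 15 arrays, averaging the probes of a gene, fits of the compared groups alone, the methods' paired t-test and leaving out each replicate. Leaving out the first arrays of W and MET, and the slide term with each replicate left out, were added after the data had been seen. Promoter letters were searched with Python 3.11.15, and figures were drawn with matplotlib 3.10.9. The number of arrays limits the precision. The microarray probe sequences and member proteins were not used here.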

Additional observations from a re-analysis of the deposited data

Results flagged for a closer look

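BAK1 was flagged because the effects of NP and MET differed, by -0.353 on the log2 scale (SE 0.154, unadjusted p of 0.0451 and adjusted p of 1 by limma). All 3 NP pairs were lower and all 3 MET pairs were higher. TRIB3 was flagged for the same kind of difference, 0.469 (SE 0.187, unadjusted p of 0.0306 and adjusted p of 1 by limma), with higher values in all 3 pairs of both compounds. Both were among 15 genes examined in this way, the 10 members and 5 upstream or stress response genes (among them ATF4, DDIT3, ATF3 and TRIB3). Neither passed the adjustment over all genes, and the doses of the compounds differ. No test for an outlying value was made within groups of 3 arrays.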

How the results depend on the processing

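No member was called in any of the 3 comparisons under any alternative run. The largest estimate of a member, 0.57 for BBC3 with NP, lay below 1.5-fold. The size limit alone thus left no member to call, whatever its p. Without the replicate block, 0 members were called and the unadjusted p of 0.05 was passed by PMAIP1 for NP (1 of 10, beside 3.43% of all genes), by 0 members for MET (1.49% of all genes) and by 0 for PHEN (1.36%). The estimate of BBC3 was above 0 in all 16 alternatives, from 0.42 to 0.57 for NP, 0.38 to 0.44 for MET and 0.36 to 0.50 for PHEN, and that of PMAIP1 for NP ran from 0.39 to 0.56. Some estimates changed sign between alternatives. With normexp, BCL2 gave -0.029 and BCL2L1 gave 0.02 for NP. With the mean of a gene's probes, BAX gave 0.006 for NP, BCL2 gave 0.025 for PHEN, and the pro-death minus pro-survival difference for PHEN was 0.096. Leaving out each replicate number gave, for NP, -0.064 to 0.005 (BAX), -0.109 to 0.103 (TNFRSF10B), -0.019 to 0.079 (BCL2), -0.246 to 0.007 (MCL1) and -0.128 to 0.025 (BCL2L1). For MET it gave -0.033 to 0.078 (PMAIP1), and for PHEN -0.162 to 0.083 (BCL2L11), -0.143 to 0.041 (BID), -0.116 to 0.182 (BAX) and -0.202 to 0.019 (MCL1). Leaving out the first arrays of W and MET, chosen after the data had been seen, gave -0.033 for PMAIP1 with MET, and -0.157 for BAX and 0.012 for TNFRSF10B with PHEN. The cause of these changes was not tested. Counts of all genes called for NP were 10 in the reported fit, 3 without the block, 63 with the slide term, 52 with the block within slide sets, 70 with slide as a random block, 27 with normexp, 17 with quantile normalization, 25 over probes above background on all 15 arrays, 2 without the first arrays of W and MET, and 0 with no filter, with only the groups compared and without replicate 1, 2 or 3, with or without the slide term. The methods' paired t-test gave 214 genes for NP without adjustment, 124 for MET and 168 for PHEN, and 0 after adjustment.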
